A study of Mus musculus with 87 samples.

Results

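The collagen genes were examined in mouse embryonic stem cells (ESC) and in neuronal precursors (NP) made from them, in 13 RNA-seq comparisons of cells that carry altered forms of Suz12. The members were taken by name alone, as every symbol made of Col, a type number, the letter a and a chain number. This gave 44 of the 26171 symbols in each table, and all 44 were listed in all 13 tables. Of these, 11 encode chains of fibrillar collagens, 6 encode chains of the type IV collagen of basement membranes, and 27 encode other collagens. The 27 comprise 9 FACIT collagens (collagens that sit on the surface of fibrils), 6 chains of the beaded filament collagen VI, 4 transmembrane collagens, 3 short chain network collagens, 2 multiplexins, the anchoring fibril collagen Col7a1, and Col26a1 and Col28a1, which were left unclassed.

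Suz12 belongs to the core of PRC2, a Polycomb complex that places methyl groups on histone H3 at lysine 27 (H3K27me3), and its exon 4 is alternatively spliced. The series holds 87 samples, of which 32 are polyA RNA-seq libraries. ESC were grown in 20% serum with LIF, and NP were made through embryoid bodies with retinoic acid from day 4 and harvested on day 8. The groups were wild type (WT; 3 ESC and 4 NP libraries), cells with a constitutive Suz12 exon 4 (CSex4; 2 and 2), cells in which exon 4 was deleted (Deltaex4; 2 and 2), the full Suz12 knock-out (KO; 3 and 2), the KO rescued with the long isoform (KO-L; 2 and 2) and the KO rescued with the short isoform (KO-S; 2 and 2). In ESC only, both rescues were also made from the Rosa26 locus with isoforms carrying the 3D mutation downstream of exon 4 (KO-L3D and KO-S3D; 2 libraries each). KO-L, KO-S, KO-L3D and KO-S3D thus all lack the endogenous Suz12. The labels do not say where the KO-L and KO-S isoforms are expressed from, how many clones a group holds, or whether libraries of a group came from separate cultures. The p-values then measure only the spread between these libraries, which may be technical.

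Collagens are triple helices of 3 chains that form the fibrils, networks and filaments of the extracellular matrix. Fibrillar types I, III and V are made above all by mesenchymal cells, type II is the fibril of cartilage and is also made by notochord, and type IV is the network of every basement membrane and is made in large amounts by parietal endoderm. Undifferentiated ESC make little fibrillar collagen, and many developmental genes that ESC keep silent carry H3K27me3 at their start.

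Each table gives the statistics of a comparison, and the reads of each library were worked back from the deposited means. The 32 libraries hold 21399634 to 42962000 reads in genes. Values are given as reads per 1000000 reads of the library (CPM), which are not scaled by gene length, so levels are compared between libraries and not between genes. Libraries of a group are named a, b, c and d, which is not a replicate number of the labels. Suz12 itself was at 169 to 324 CPM in the ESC WT libraries and at 50.04 to 107 CPM in the ESC KO libraries, with KO-L at 123 and 139 CPM, KO-S at 160 CPM in both, KO-S3D at 206 and 368 CPM, and KO-L3D, at 73.7 and 106 CPM, inside the KO range. ESC CSex4, at 290 and 265 CPM, lay in the WT range of Suz12. ESC Deltaex4, at 86.5 and 149 CPM, lay below every WT library, with library a inside the KO range. In NP, Suz12 was at 115 to 216 CPM in WT against 45.7 and 47.4 CPM in KO. The ESC WT library c stood apart from a and b, with a summed level of 8 extraembryonic endoderm markers of 159 CPM against 16.0 and 13.0 CPM. In the 6 ESC tables with 2 libraries beside WT, the fold changes rest on WT b and WT c, because WT a carries almost no weight in them. Among the NP WT libraries, a stood apart with 1004 CPM of the same endoderm markers and 502 CPM of 8 neural precursor markers. The NP CSex4 pair differed by a mean chi-square of 2.33 per gene, where sampling alone gives 1 and the other 22 pairs of a group gave 10.4 to 137, so these libraries carry little spread of their own. The 7 ESC tables share the WT libraries, 3 NP tables share WT a and b, and 4 NP tables share the KO libraries. These are bulk samples, in which fewer cells of a type and less RNA per cell cannot be told apart.

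Start regions of collagen genes differed in base composition and in Polycomb regions. The authors deposited 2865 Suz12 regions and 6882 H3K27me3 regions from ESC ChIP-seq; the lists give no direction of change and do not name the group that WT was compared with. Of the 35 members with an annotated start in RefSeq (GRCm38.p6), 10 (28.6%) lay within 2500 bp of a Suz12 region and 16 (45.7%) within 2500 bp of an H3K27me3 region. Over 19502 genes the same shares were 9.35% and 17.9%. The 10 were Col4a1, Col4a2, Col5a1, Col8a2, Col13a1, Col15a1, Col19a1, Col23a1, Col25a1 and Col27a1, and all 10 also had an H3K27me3 region. Col11a1, Col16a1, Col24a1, Col4a4, Col6a6 and Col9a2 had an H3K27me3 region alone. In the 250 bases before the start, members at a Suz12 region held a median of 21 CpG dinucleotides, members without one held 7, and all genes held 9. The build is that of RefSeq; mm10, named in the submitters' processing notes, is the same assembly without its patches.

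The 250 bases before the start are printed for 4 members on which the results below turn: 2 fibrillar genes that were high in ESC CSex4 and KO-L and have no region in either list, a fibrillar gene that was high in the same groups and has both regions, and the transmembrane collagen that was highest in KO-S and has both. Each reads 5′ to 3′ on the strand of the gene, and capitals mark CG.
Col3a1, chr1:45311288-45311537, plus strand: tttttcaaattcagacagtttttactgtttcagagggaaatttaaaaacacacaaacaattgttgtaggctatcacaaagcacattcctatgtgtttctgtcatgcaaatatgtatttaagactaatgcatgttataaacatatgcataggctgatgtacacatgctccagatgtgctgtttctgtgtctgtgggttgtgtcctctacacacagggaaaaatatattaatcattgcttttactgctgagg
Col1a2, chr6:4505368-4505617, plus strand: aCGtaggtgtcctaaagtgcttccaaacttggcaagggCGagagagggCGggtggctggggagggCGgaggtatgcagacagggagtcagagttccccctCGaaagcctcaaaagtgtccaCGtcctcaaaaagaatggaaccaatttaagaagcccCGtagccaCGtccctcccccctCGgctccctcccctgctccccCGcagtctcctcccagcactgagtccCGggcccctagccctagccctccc
Col5a1, chr2:27886175-27886424, plus strand: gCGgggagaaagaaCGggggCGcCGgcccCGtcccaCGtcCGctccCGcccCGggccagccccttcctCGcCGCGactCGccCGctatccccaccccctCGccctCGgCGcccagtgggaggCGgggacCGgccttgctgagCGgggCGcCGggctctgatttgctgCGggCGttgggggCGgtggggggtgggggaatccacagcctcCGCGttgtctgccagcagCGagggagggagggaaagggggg
Col13a1, chr10:61979109-61979358, minus strand: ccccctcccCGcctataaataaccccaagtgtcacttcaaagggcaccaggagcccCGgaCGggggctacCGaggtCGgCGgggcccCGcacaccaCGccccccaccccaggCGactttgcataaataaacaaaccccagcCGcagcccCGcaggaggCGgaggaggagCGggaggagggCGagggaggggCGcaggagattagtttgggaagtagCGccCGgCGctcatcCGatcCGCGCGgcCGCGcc
Col3a1 held 0 CG in this window, Col1a2 held 11, Col13a1 held 24 and Col5a1 held 28. Among all promoters of the same length, 46.1% held at least 11 CG, 14.7% at least 24 and 9.1% at least 28, and 6.91% held none. The Suz12 region at Col5a1 spans chr2:27886096-27887524, and that at Col13a1 spans chr10:61977092-61979888. A CG is a match of letters and not a measured methylation or binding site.

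**Figure D1:**
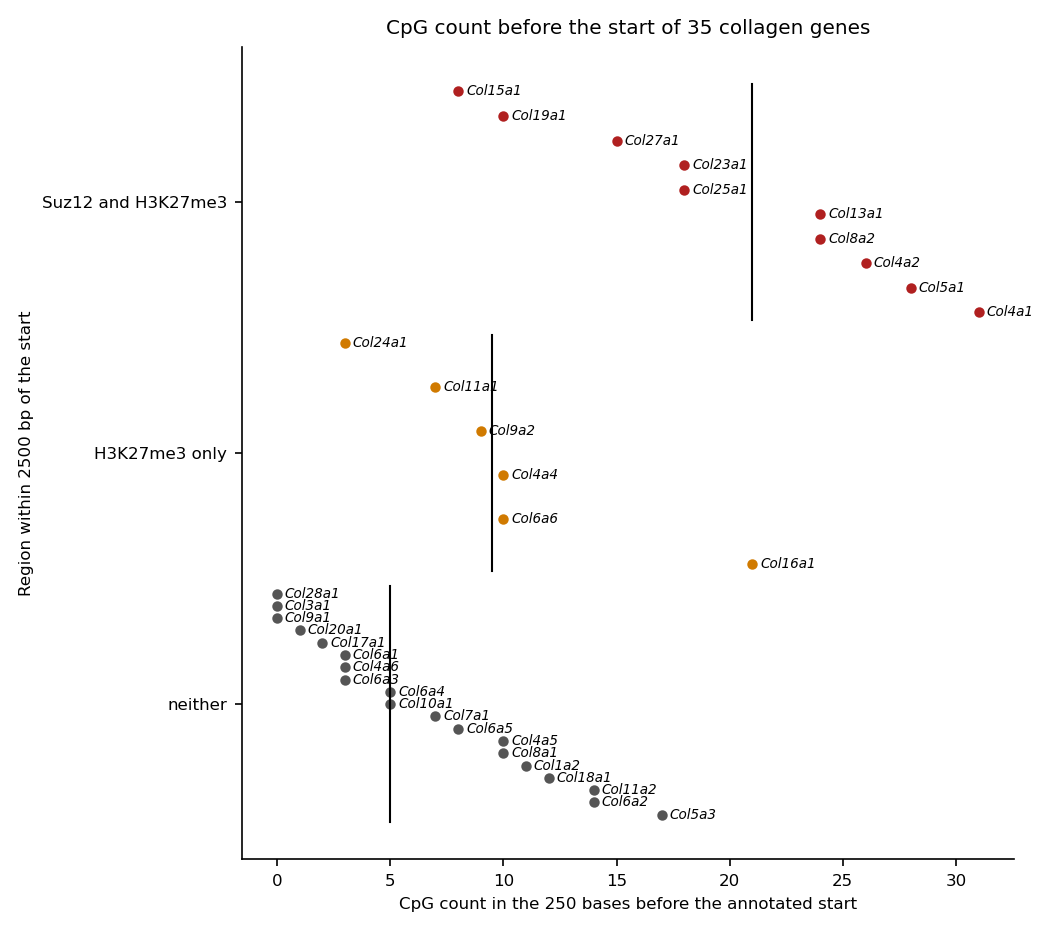
CpG dinucleotides in the 250 bases before the start (horizontal axis, count) of the 35 members with an annotated start, in rows for members with a Suz12 and an H3K27me3 region, with an H3K27me3 region alone, and with neither. The 10 members with both kinds of region have a median of 21 CpG, and the members without a Suz12 region have a median of 7.

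Across the 13 tables, 34 of the 44 members passed an adjusted p under 0.05 at least once and 10 never did. In ESC nearly all called members were higher than in WT. In the authors' deposited table of CSex4, 8 of 28 tested members rose and 0 fell. Of all genes tested there, 1.72% rose and 0.695% fell, 2.41% in all. The authors' deposited table of KO-L had 8 of 29 members higher and 0 lower, beside 1.46% and 0.771% of all genes (2.23% in all). That of KO-S had 9 of 33 higher and 0 lower, beside 4.28% and 3.63% of genes (7.91% in all), and that of KO had 11 of 40 higher and 0 lower, beside 11% and 7.27% (18.3% in all). The higher members thus made up a larger share than the higher genes in each of these 4 tables. With the 3D mutation, the authors' deposited tables had 7 of 35 members higher and 3 lower in KO-L3D, beside 8.22% and 10.1% of genes (18.3% in all), and 2 of 31 higher and 2 lower in KO-S3D, beside 2.05% and 1.18% (3.23% in all). The ESC Deltaex4 table called 0 of 44 members and 0.0% of genes, with 0 members at an unadjusted p under 0.05, and limma on the same libraries also called 0, with 5 members at an unadjusted p under 0.05.

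In NP the calls went both ways. Against WT, the authors' deposited tables had 2 of 37 members higher and 4 lower in CSex4, beside 4.08% and 1.45% of genes (5.53% in all). In KO they had 4 of 37 higher and 7 lower, beside 11.6% and 9.85% of genes (21.4% in all). The NP Deltaex4 table called 0 of 41 members, beside 0.0289% of genes higher and 0.052% lower (0.0809% in all), with 3 members at an unadjusted p under 0.05; limma called 0, with 2 at an unadjusted p under 0.05. Against NP KO, 11 of 40 members were higher and 7 lower in KO-L, beside 10.9% and 13.8% of genes (24.7% in all). The same counts were 9 of 38 and 8 in KO-S, beside 16.4% and 18.0% (34.5% in all), and 5 of 40 and 10 in WT c and d, beside 15.6% and 17.3% (32.9% in all). The share of tested members called, either way, was 37.5% in WT against KO, near its background of 32.9%, and 44.7% in KO-S and 45.0% in KO-L. Fitted with limma without a replicate block, NP KO against WT had 2 members called (Col2a1 and Col26a1; 10.6% of genes), 9 without WT a (20.6%), and 0 without either of the KO libraries (0.0%). The median log2 fold change of the members was 0.90 in ESC CSex4, 0.91 in ESC KO-L, 0.95 in ESC KO, 0.57 in ESC KO-S, 0.63 in ESC KO-L3D and 0.32 in ESC KO-S3D, against 0.01 to 0.10 over all genes in the same tables. In NP the medians ran from -0.56 in WT against KO to 0.18 in KO-L against KO.

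**Figure D2:**
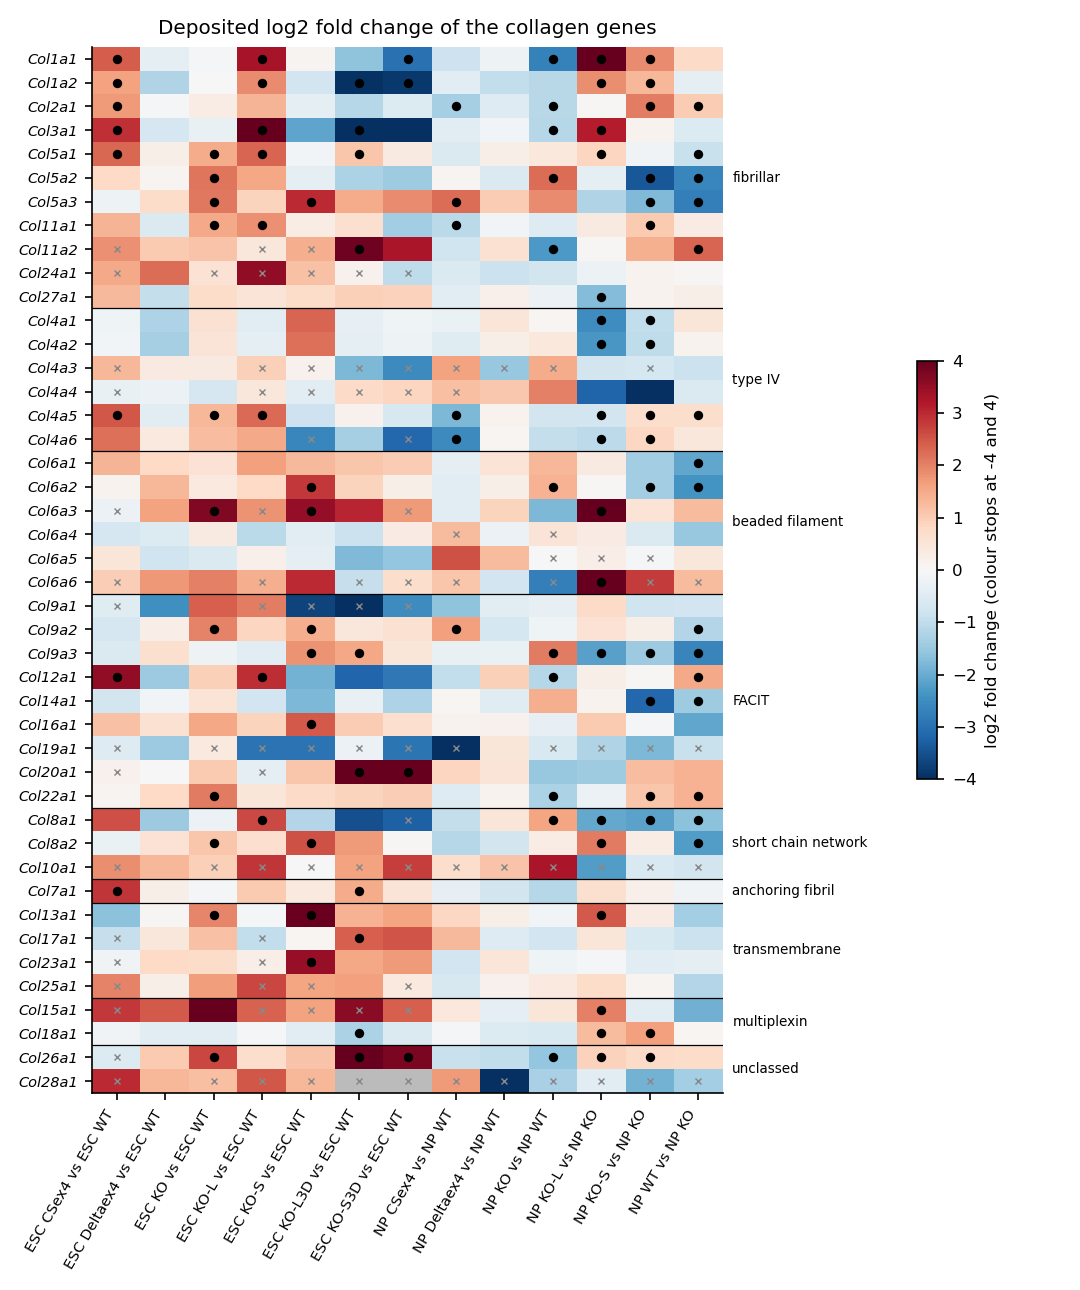
Log2 fold change in the authors' deposited tables (colour) of the 44 collagen genes, grouped by class, in the 13 comparisons, with called members marked. In ESC, Col1a1, Col1a2 and Col3a1 are high in CSex4 and KO-L and low in the 3D rescues, and in NP the type IV genes are low in KO-L against KO.

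Type I and type III collagen genes were high in ESC CSex4 and in ESC KO-L. Col1a1 encodes the main chain of collagen I, the fibril of bone, skin and tendon. Col1a1 was at 6.76, 10.3 and 3.27 CPM in WT, at 44.4 and 25.4 CPM in CSex4 and at 60.6 and 60.7 CPM in KO-L. Both groups lay above every WT library. Its log2 fold change in the authors' deposited tables was 2.43 ± 0.52 (SE; adjusted p = 0.00073) in CSex4 and 3.29 ± 0.42 (adjusted p = 1.9e-11) in KO-L. Col1a1 was at 17.4, 4.44 and 3.57 CPM in KO, at 5.30 and 9.34 CPM in KO-S and at 7.27 and 3.23 CPM in Deltaex4. These groups overlapped WT, and the deposited tables called none of them. The rescues with the 3D mutation were at the low end, with 2.09 and 2.71 CPM in KO-L3D and 1.85 and 0.311 CPM in KO-S3D, all below the lowest WT library. The authors' deposited table called the fall in KO-S3D (log2 fold change -2.98 ± 0.87, adjusted p = 0.025) but not that in KO-L3D (-1.60 ± 0.64, adjusted p = 0.063).

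Col3a1, the chain of collagen III, which is laid down with collagen I in soft tissue, was high in the same 2 groups. It was at 0.930, 1.92 and 0.205 CPM in WT, 7.71 and 4.16 CPM in CSex4 and 11.7 and 13.0 CPM in KO-L. Both groups again lay above WT, with log2 fold changes of 2.92 ± 0.87 (adjusted p = 0.038) and 4.01 ± 0.72 (adjusted p = 1.5e-05) in the authors' deposited tables. No Col3a1 read was found in any of the 4 libraries of KO-L3D and KO-S3D. With 3 reads per library as the floor, that is at least 8.14-fold lower than the WT mean of 1.02 CPM in KO-L3D and at least 7.63-fold lower in KO-S3D, for counting error only. Without WT b the WT mean is 0.567 CPM, and the bounds are 4.54-fold and 4.26-fold. The authors' deposited table called the fall in KO-L3D (adjusted p = 0.0081) and not that in KO-S3D (adjusted p = 0.068). KO-S, at 0.166 and 0.175 CPM (4 reads in each library), also lay below every WT library for Col3a1, unlike for Col1a1. The deposited table did not call this. Limma gave -1.01 (adjusted p = 0.18) with all libraries and -1.47 (adjusted p = 0.0015) without WT c.

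Col1a2, the partner chain of Col1a1 in collagen I, was at 2.82, 3.1 and 4.22 CPM in WT. It reached 16.6 and 8.24 CPM in CSex4 and 12.5 and 16.0 CPM in KO-L, and dropped to 1.45 and 0 CPM in KO-L3D and 0.644 and 0.0888 CPM in KO-S3D. None of these 4 groups overlapped WT. In the authors' deposited tables the log2 fold changes were 1.62 ± 0.49 in CSex4 (adjusted p = 0.046), 1.90 ± 0.46 in KO-L (adjusted p = 0.0049), -3.96 ± 1.08 in KO-L3D (adjusted p = 0.0032) and -3.87 ± 0.99 in KO-S3D (adjusted p = 0.0063). Library a of ESC KO was at 12.1 CPM for Col1a2, 17.4 CPM for Col1a1 and 2.85 CPM for Col3a1, while KO b and c lay at 2.45 and 1.87, at 4.44 and 3.57, and at 0.332 and 0.207 CPM. The 3 genes were called in no direction in KO, with log2 fold changes of -0.03 ± 0.57, -0.06 ± 0.50 and -0.29 ± 0.92 in the authors' deposited table. For KO-S, the deposited tables gave -0.78 ± 0.64, 0.12 ± 0.47 and -2.11 ± 1.35, and for Deltaex4 -1.20 ± 0.78, -0.37 ± 0.60 and -0.67 ± 1.35, none of them called.

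**Figure D3:**
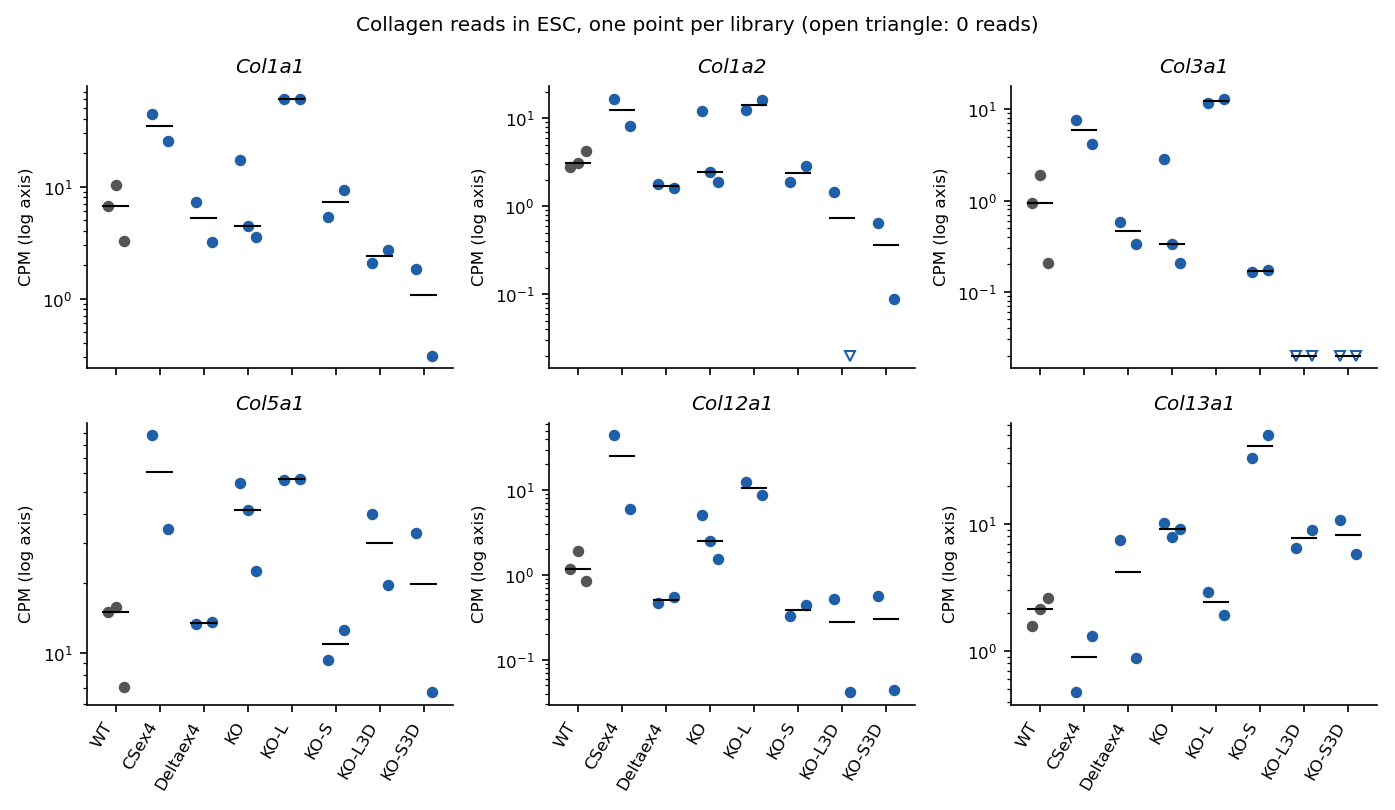
CPM (log axis) of the fibrillar collagen genes Col1a1, Col1a2, Col3a1 and Col5a1, and of Col12a1 and Col13a1, in each of the 18 ESC libraries, by group. Points are libraries. Col1a1, Col1a2 and Col3a1 lie above all WT libraries in both CSex4 and both KO-L libraries and below them in the KO-S3D libraries.

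The fibril-starting collagen V moved in more groups. Col5a1, which sets fibril diameter, was at 15.1, 15.8 and 7.12 CPM in WT, 87.6 and 34.5 CPM in CSex4, 54.3, 41.7 and 22.7 CPM in KO, 56.4 and 56.5 CPM in KO-L and 39.9 and 19.7 CPM in KO-L3D. All 4 groups lay above the WT libraries. The authors' deposited tables called all 4, with log2 fold changes of 2.29 ± 0.49, 1.47 ± 0.36, 2.34 ± 0.38 and 1.10 ± 0.37. KO-S, at 9.28 and 12.6 CPM, lay within the WT range. Its partner Col5a2 rose in the authors' deposited table of KO (log2 fold change 2.15 ± 0.50, adjusted p = 0.0003), from 0.614 to 1.29 CPM in WT to 2.78 to 8.48 CPM. Col5a3, the third chain, rose in KO (2.10 ± 0.33) and KO-S (2.99 ± 0.46) in the authors' deposited tables, from 1.71 to 2.15 CPM in WT to 15 and 18.5 CPM in KO-S.

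Type II and type XI collagens form the fibrils of cartilage. Col2a1 was at 9.62, 9.26 and 4.30 CPM in WT and at 25.4 and 18.8 CPM in CSex4, above all WT libraries. KO-L, at 13.8 and 20.8 CPM, also lay above every WT library. The authors' deposited table gave 1.71 ± 0.47 in CSex4 (adjusted p = 0.018) and called no other ESC group for Col2a1; the values were 1.35 ± 0.49 in KO-L, 0.28 ± 0.42 in KO, -0.39 ± 0.49 in KO-S, -1.14 ± 0.51 in KO-L3D, -0.54 ± 0.65 in KO-S3D and -0.07 ± 0.66 in Deltaex4. Col11a1 held 5.33 to 5.64 CPM in WT, 16.5 to 18.9 CPM in KO and 21.7 and 20.0 CPM in KO-L. The authors' deposited tables called both of these rises, of 1.52 ± 0.24 and 1.84 ± 0.41. CSex4 (20.0 and 11.4 CPM), KO-S (5.80 and 9.51 CPM) and KO-L3D (17.7 and 6.16 CPM) also lay above every WT library for Col11a1. The deposited tables called none of these. The partner gene Col11a2 was called in KO-L3D alone among the authors' deposited ESC tables (log2 fold change 3.90 ± 1.04, adjusted p = 0.0024). It was at 4.06 and 2.95 CPM there and at 0.143 to 0.205 CPM in WT. KO-S3D, at 3.13 and 1.29 CPM, also lay above every WT library, and the limma fit called Col11a2 higher in both 3D rescues.

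The calls in CSex4 and KO-L were not made by a fit without pairing. With limma on the recovered reads, without a replicate block and with all 3 WT libraries, 0 members and 0.0% of genes were called in CSex4 and likewise in KO-L. Each had 15 members at an unadjusted p under 0.05. In that fit Col1a1 in CSex4 had a log2 difference of 2.35 with an adjusted p of 0.18. Leaving out CSex4 b brought 8 members and 3.47% of genes to a call, and leaving out WT c brought 4 members (Col1a1, Col4a1, Col4a2 and Col5a1) and 0.0952% of genes to a call in KO-L. CSex4 a was the higher of its pair for each of the 8 called members. Among them Col12a1 was at 43.9 against 6.04 CPM and Col7a1 at 78.5 against 12.6 CPM.

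Sums of cell type markers differed in these groups, for the fibroblast and mesenchyme list mostly through Acta2. The summed level of 12 fibroblast and mesenchyme markers was 66.0 to 86.0 CPM in WT, 148 and 412 CPM in CSex4, and 177 and 210 CPM in KO-L; it was 95.8 to 158 CPM in KO, 130 and 166 CPM in KO-S and 43.4 to 107 CPM in the 3D rescues. Of this sum Acta2 made up 108 and 373 CPM in CSex4 and 127.5 and 147 CPM in KO-L, against 11.8 to 37.6 CPM in WT and 4.4 to 7.0 CPM in the 3D rescues. Without Acta2, the sum in CSex4 and KO-L lay within the WT range. The upper end of that range was WT c, with Pdgfra at 33.9 CPM against 0.501 and 0.731 CPM in WT a and b. Pdgfrb, Twist2, Prrx1, Thy1 and Postn each lay above every WT library in all libraries of CSex4 and KO-L. Pdgfra, Twist1, Meox1, Fbln1 and Lum did not. All 12 had reads in CSex4 and KO-L, and 8 to 10 of the 12 in the 3D rescues. Lum and Dcn, which mark fibroblasts, were at 0.040 to 0.28 CPM and at 0.71 to 1.0 CPM in CSex4 and KO-L. In WT, Lum was at 0 to 0.041 CPM and Dcn at 0 to 0.25 CPM. Dcn thus lay above every WT library in both groups, and Lum in KO-L, at low levels throughout. Of 7 tested members of this marker list, Acta2 and Postn rose in the authors' deposited table of KO-L, beside 1.46% of genes. In that of CSex4, 0 of 6 tested members were called, beside 2.41% of genes. The 6 ESC markers summed to 1510 and 2142 CPM in CSex4 and 2009 and 3203 CPM in KO-L, against 2743 to 3619 CPM in WT. The part of other cell types in the collagen results was not tested.

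The difference between the long and the short rescue was tested directly. Between ESC KO-L and KO-S, 6 of 44 members differed (2.36% of genes), and 5 of the 6 were higher in KO-L. The difference in log2 fold change was 3.17 ± 0.63 for Col1a1, 2.68 ± 0.79 for Col1a2, 6.12 ± 1.53 for Col3a1, 2.46 ± 0.55 for Col5a1 and 4.84 ± 1.21 for Col12a1, in a z test on the deposited values with adjusted p from 0.00013 to 0.035. Col13a1 differed the other way, by -4.02 ± 0.85 (adjusted p = 0.00039). Between KO-L and KO-L3D, 6 of 43 members differed (2.84% of genes), all higher in KO-L: Col1a1, Col1a2, Col2a1, Col3a1, Col8a1 and Col12a1, by 2.5 to 10.84 on the log2 scale, where the upper value is that of Col3a1, a gene without reads in KO-L3D, and is no measure of size. Between KO-S and KO-S3D, 0 members and 0.44% of genes differed, with 6 members at an unadjusted p under 0.05. Between CSex4 and Deltaex4, 0 members and 0.0502% of genes differed, with 11 members at an unadjusted p under 0.05, so that the calls in CSex4 are not shown to differ from Deltaex4. In every such pair the WT libraries are shared.

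Of 4 transmembrane and 3 short chain collagen genes, Col13a1 and Col8a2 were called in KO and, with Col23a1, in KO-S. Col13a1 encodes a transmembrane collagen of cell adhesion sites and of the neuromuscular junction. It was at 1.57, 2.16 and 2.62 CPM in WT, 10.2, 7.96 and 9.16 CPM in KO and 33.0 and 49.8 CPM in KO-S. Neither group overlapped WT, and KO-S lay above KO. The 3D rescues also lay above every WT library, at 6.52 and 8.95 CPM in KO-L3D and 10.7 and 5.77 CPM in KO-S3D. The authors' deposited tables gave log2 fold changes of 1.95 ± 0.35 in KO (adjusted p = 1.4e-06) and 3.95 ± 0.38 in KO-S (adjusted p = 1.3e-21), and called neither KO-L3D (1.39 ± 0.59, adjusted p = 0.084) nor KO-S3D (1.58 ± 0.66, adjusted p = 0.21). The limma fit called Col13a1 in both, at 1.66 (adjusted p = 0.012) and 1.70 (adjusted p = 0.048). The transmembrane collagen Col23a1 was at 0.279 to 0.696 CPM in WT and rose in KO-S to 4.72 and 6.5 CPM, which the authors' deposited table gives as 3.47 ± 0.76 (adjusted p = 0.00024). The short chain collagen Col8a2, a component of the corneal Descemet membrane, rose in KO (1.12 ± 0.39) and KO-S (2.56 ± 0.54) in the authors' deposited tables, from 1.32 to 2.18 CPM in WT to 8.86 and 9.55 CPM in KO-S. Its partner Col8a1 rose instead in KO-L (2.65 ± 0.77, adjusted p = 0.033, in the authors' deposited table), to 4.98 and 5.12 CPM from 0.491 to 1.15 CPM in WT. Col8a1 in CSex4, at 7.99 and 3.00 CPM, also lay above every WT library. It had an unadjusted p under 0.05 in the deposited table and was not called. Col13a1, Col23a1 and Col8a2 are 3 of the 10 members with a Suz12 region at the start. In KO-S the median log2 fold change was 1.91 over those 10 and 0.29 over the 25 without such a region, and 3 of the 10 and 5 of the 25 were called higher, as a description without a test. The other ESC groups had no common order: the medians with and without such a region were 0.92 and 1.04 in KO, -0.13 and 1.18 in CSex4, 0.40 and 1.46 in KO-L, 1.25 and 0.54 in KO-L3D and 0.36 and 0.42 in KO-S3D.

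Among collagen VI chains, which form beaded filaments around cells, Col6a3 rose in KO (3.71 ± 1.00) and KO-S (3.51 ± 1.16) in the authors' deposited tables. It went from 0, 0.174 and 0.164 CPM in WT to 0.871 to 1.87 CPM in KO and 1.74 and 2.57 CPM in KO-S, which are low levels in every ESC group. Col6a2 rose in KO-S, to 17.1 and 19.4 CPM from 1.67 to 3.23 CPM in WT. The authors' deposited table gives this as 2.82 ± 0.46 (adjusted p = 1.2e-07). Its neighbour Col6a1, 85161 bp away on chromosome 10, was at 1.78 and 1.92 CPM in KO-S and 0.453 to 1.72 CPM in WT and was not called in any ESC table. Col6a4 and Col6a5 were called in no deposited table, and Col6a6 in no deposited ESC table. The limma fit called Col6a6 higher in KO and KO-S. It was at 0.746 to 1.07 CPM in KO and 1.57 and 1.66 CPM in KO-S, against 0.139 to 0.246 CPM in WT.

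FACIT collagens and the unclassed Col26a1 followed no single order of groups. Col12a1, which decorates collagen I fibrils, was at 1.18, 1.92 and 0.859 CPM in WT, 43.9 and 6.04 CPM in CSex4 and 12.5 and 8.71 CPM in KO-L. Both groups lay above WT, by log2 fold changes of 3.55 ± 0.68 and 2.94 ± 0.57 in the authors' deposited tables. Col20a1 was at 0.139 to 0.532 CPM in WT and rose in the 3D rescues only among ESC tables, to 16.2 and 16.4 CPM in KO-L3D (5.48 ± 0.66) and 9.70 and 6.17 CPM in KO-S3D (4.60 ± 0.85) in the authors' deposited tables. Col26a1 had its 2 largest rises in the same 2 groups, to 15.3 and 14.3 CPM and 9.23 and 8.03 CPM from 0.279 to 1.06 CPM in WT (4.39 ± 0.64 and 3.77 ± 0.81), and rose by 2.66 ± 0.60 in KO, in the authors' deposited tables. The direct tests between a rescue and its 3D form called neither gene; both had an unadjusted p under 0.05 between KO-L and KO-L3D, and Col20a1 also between KO-S and KO-S3D. Col22a1, a collagen of tissue junctions, rose in KO by 2.07 ± 0.39, and Col9a2, a cartilage FACIT with an H3K27me3 region at its start, rose by 1.98 ± 0.20 in KO and 1.47 ± 0.35 in KO-S in the authors' deposited tables. Col9a2 was at 10.9, 8.84 and 9.25 CPM in WT, 44.7, 43.4 and 40.5 CPM in KO and 26.0 and 29.1 CPM in KO-S, with no overlap. Col9a3 rose in KO-S (1.79 ± 0.50) and KO-L3D (1.54 ± 0.50), and Col16a1, the other FACIT called in KO-S, by 2.45 ± 0.75, in the authors' deposited tables.

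The anchoring fibril collagen Col7a1, which ties epithelial basement membranes to the tissue below, rose in CSex4 (2.85 ± 0.59) and KO-L3D (1.49 ± 0.50) in the authors' deposited tables. It was at 4.83, 5.33 and 3.15 CPM in WT and at 13.6 and 14.9 CPM in KO-L3D. The epithelial transmembrane collagen Col17a1 rose in KO-L3D by 2.40 ± 0.75 in the authors' deposited table, to 4.55 and 6.45 CPM from 0.358 to 1.31 CPM in WT. KO-S3D, at 5.15 and 5.41 CPM, also lay above every WT library. The deposited table did not call Col17a1 in KO-S3D, and the limma fit called it higher in both 3D rescues. Col18a1, the multiplexin of basement membranes from which endostatin is cut, was the only member outside collagens I and III that fell in an ESC table. It was at 668, 612 and 594 CPM in WT and 297 and 317 CPM in KO-L3D, a log2 fold change of -1.27 ± 0.28 (adjusted p = 0.00013) in the authors' deposited table. Its mean of 12922 reads over the ESC libraries lies above 9075 reads, the lowest mean at which the recovery of single libraries erred in simulated data, so these CPM are less certain than those of other members.

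The 2 main type IV chains were called in no ESC table, and the WT libraries themselves spanned a wide range. Col4a1 and Col4a2 encode the chains of the collagen IV found in all basement membranes. They lie head to head on chromosome 8, with starts 21 bp apart inside 1 Suz12 region (chr8:11311196-11314595) and 1 H3K27me3 region. Col4a1 was at 54.4, 55.7 and 699 CPM in WT a, b and c, and Col4a2 at 27, 30.2 and 385 CPM. In KO-S, Col4a1 was at 900 and 1353 CPM and Col4a2 at 437 and 679 CPM, above all WT libraries. For KO-S, Col4a1 had in the authors' deposited table a log2 fold change of 2.34 ± 1.29 and Col4a2 of 2.20 ± 1.5, not called. With limma, Col4a1 in KO-S was 3.09 higher on the log2 scale with an adjusted p of 0.087 over all libraries, and 4.31 higher with an adjusted p of 8.9e-08 without WT c. Without WT c, Col4a1 was also called in KO (1.91, adjusted p = 8.8e-05; 0.69 and not called with all libraries) and in KO-L (1.48, adjusted p = 0.038). The number of members called in KO-S without WT c was 23 (45.8% of genes), against 10 (19.8%) with it, and it was 0 (0.0%) without KO-S b.

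The other ESC groups were mixed for Col4a1: 215, 245 and 171 CPM in KO, 164 and 146 CPM in KO-L, 313 and 112 CPM in CSex4, 160 and 49.4 CPM in Deltaex4, 408 and 93.3 CPM in KO-L3D and 701 and 54.5 CPM in KO-S3D. In the authors' deposited tables its log2 fold changes in these groups ran from -1.25 ± 1.72 in Deltaex4 to 0.62 ± 0.94 in KO, and those of Col4a2 from -1.33 ± 1.75 to 0.50 ± 0.97. The extraembryonic endoderm markers had the same high libraries. Their sum was 226 and 319 CPM in KO-S, 159 CPM in WT c, 179 CPM in KO-S3D a, and 13.0 to 59.9 CPM in the other 14 ESC libraries. In KO-S, 7 or 8 of the 8 markers had reads, led by Gata4 (71.1 and 94.2 CPM) and Dab2 (74.5 and 116 CPM), while Afp, a marker of visceral endoderm, was at 0.041 CPM in KO-S a and at 0 in KO-S b. In the authors' deposited table of KO-S, 0 of the 7 tested markers were called, beside 7.91% of genes. The part of endoderm cells in the Col4a1 and Col4a2 levels was not tested. Reads of Col4a1 to reads of Col4a2 stood at 1.69 to 2.21 in all 18 ESC libraries.

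**Figure D4:**
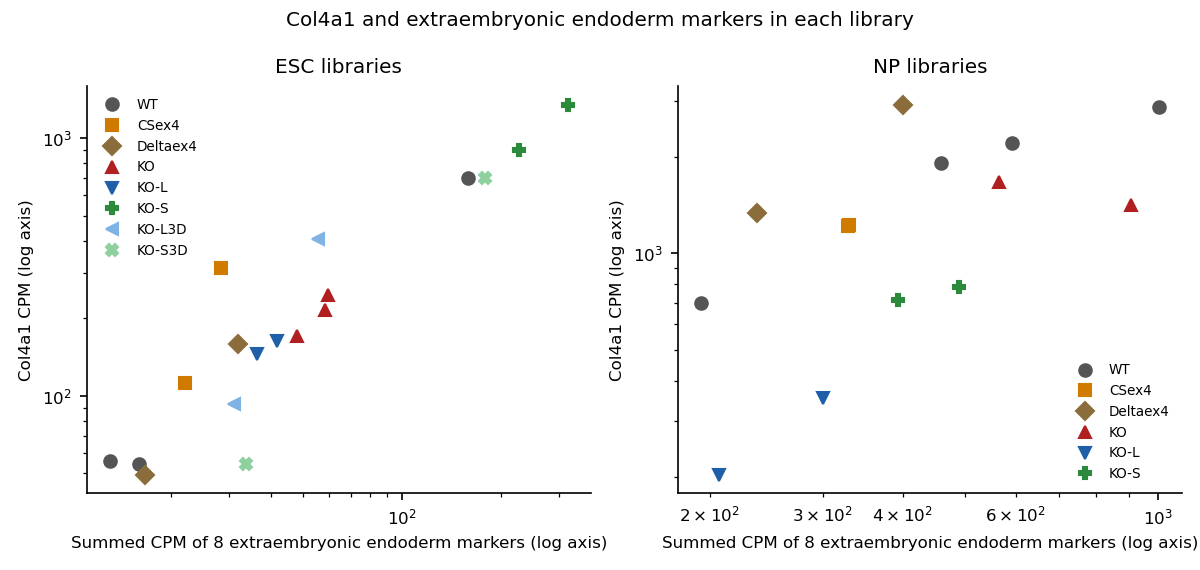
Summed CPM of 8 extraembryonic endoderm markers (horizontal, log axis) against CPM of Col4a1 (vertical, log axis); each point is 1 library of ESC or NP. ESC WT c at 699 CPM of Col4a1 lies with the KO-S libraries at 900 and 1353 CPM, and WT a and b lie at 54.4 and 55.7 CPM.

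The X-linked pair Col4a5 and Col4a6, 1274 bp apart, encodes chains of a basement membrane network of smooth muscle and epithelia. Col4a5 was at 2.15, 2.54 and 1.31 CPM in ESC WT and higher in all libraries of CSex4 (19.8 and 5.96), KO (9.92, 3.40 and 4.77) and KO-L (8.48 and 10.1 CPM). The authors' deposited tables called these 3, with log2 fold changes of 2.48 ± 0.64, 1.33 ± 0.41 and 2.26 ± 0.59. Col4a6 was at 0.368 to 0.662 CPM in ESC WT and 4.11 and 1.44 CPM in CSex4, and was called in no ESC table (2.20 ± 0.99 in CSex4 in the authors' deposited table). Col4a3 and Col4a4, the chains of the mature kidney basement membrane, whose annotated transcripts overlap by 114 bp on chromosome 1, stayed at or below 0.633 CPM in ESC and at or below 1.04 CPM in NP and were called in no deposited table. The limma fit called Col4a4 lower in NP KO-L (0.0787 and 0.0935 CPM) than in KO (1.04 and 0.623 CPM).

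In NP the rescue with the long isoform stood out for fibrillar collagens I and III. Col1a1 was at 5.87 and 3.44 CPM in NP KO, 172 and 169 CPM in KO-L, 17.0 and 15.4 CPM in KO-S, and 12.7, 65.2, 3.91 and 13.9 CPM in WT a to d. KO-L lay above every other NP library, and KO-S above both KO libraries. Against KO, the log2 fold change in the authors' deposited tables was 5.25 ± 0.24 in KO-L (adjusted p = 1.2e-102) and 1.90 ± 0.35 in KO-S (adjusted p = 8.9e-07). Against WT a and b, KO had -2.71 ± 0.48 (adjusted p = 4.6e-07) in the authors' deposited table, while WT c and d against the same KO libraries gave 0.77 ± 0.59 (adjusted p = 0.34), so the difference between WT and KO was not called with the other WT pair. Col3a1 was at 72.7 and 42.7 CPM in KO, 461 and 520 CPM in KO-L, 62.9 and 56.3 CPM in KO-S and 23.9 to 139 CPM in WT. The authors' deposited tables gave 3.15 ± 0.22 in KO-L (adjusted p = 6.4e-43) and 0.15 ± 0.21 in KO-S against KO, and -1.13 ± 0.34 in KO against WT a and b. With WT c and d over KO it was -0.54 ± 0.40, not called.

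Col1a2 in NP was at 32.3 and 14.0 CPM in KO, 69.1 and 83.6 CPM in KO-L and 54.5 and 49.4 CPM in KO-S. Both rescues lay above KO, by 1.85 ± 0.30 and 1.34 ± 0.26 in the authors' deposited tables, and KO-L also lay above NP WT, which spanned 14.5 to 54.0 CPM. Col5a1 rose in KO-L by 0.87 ± 0.22, to 140 and 157 CPM from 102 and 66.3 CPM in KO, in the authors' deposited table. Col5a2 fell in KO-S by 3.40 on the log2 scale (SE 0.53) in the authors' deposited table, from 10.2 and 6.85 CPM to 0.733 and 0.790 CPM. The same gene was higher in KO than in either WT pair, with 2.23 ± 0.71 for KO over WT a and b and -2.60 ± 0.55 for WT c and d over KO in the authors' deposited tables. Col3a1 and Col5a2 are neighbours, 24624 bp apart on chromosome 1, and in NP KO against WT a and b they were called in opposite directions. Col5a3 was lower in WT c and d than in KO (-2.73 ± 0.85) and higher in CSex4 than in WT a and b (2.25 ± 0.75, adjusted p = 0.049) in the authors' deposited tables.

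Col2a1 had another order. It was at 64.0 and 56.9 CPM in NP KO, 65.8 and 57.1 CPM in KO-L and 247 and 234 CPM in KO-S, with WT at 132, 127, 127 and 107 CPM and CSex4 at 53.7 and 51.7 CPM. KO and CSex4 lay below all WT libraries, KO-L overlapped KO, and KO-S lay above all others. The authors' deposited tables gave 2.05 ± 0.16 for KO-S over KO (adjusted p = 8.8e-35), 0.04 ± 0.22 for KO-L over KO, -1.12 ± 0.34 for KO and -1.34 ± 0.31 for CSex4 over WT, and 1.01 ± 0.27 for WT c and d over KO. Col11a2 was at 1.88 and 1.08 CPM in KO and 4.40 to 10.7 CPM in WT, and the authors' deposited tables called it with both WT pairs, at -2.30 ± 0.64 and, for WT over KO, 2.32 ± 0.63. The 6 markers of cartilage and notochord summed to 103 and 142 CPM in KO, 42.6 and 43.5 CPM in KO-L, 104 and 105 CPM in KO-S and 78.4 to 137 CPM in WT, an order unlike that of Col2a1.

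**Figure D5:**
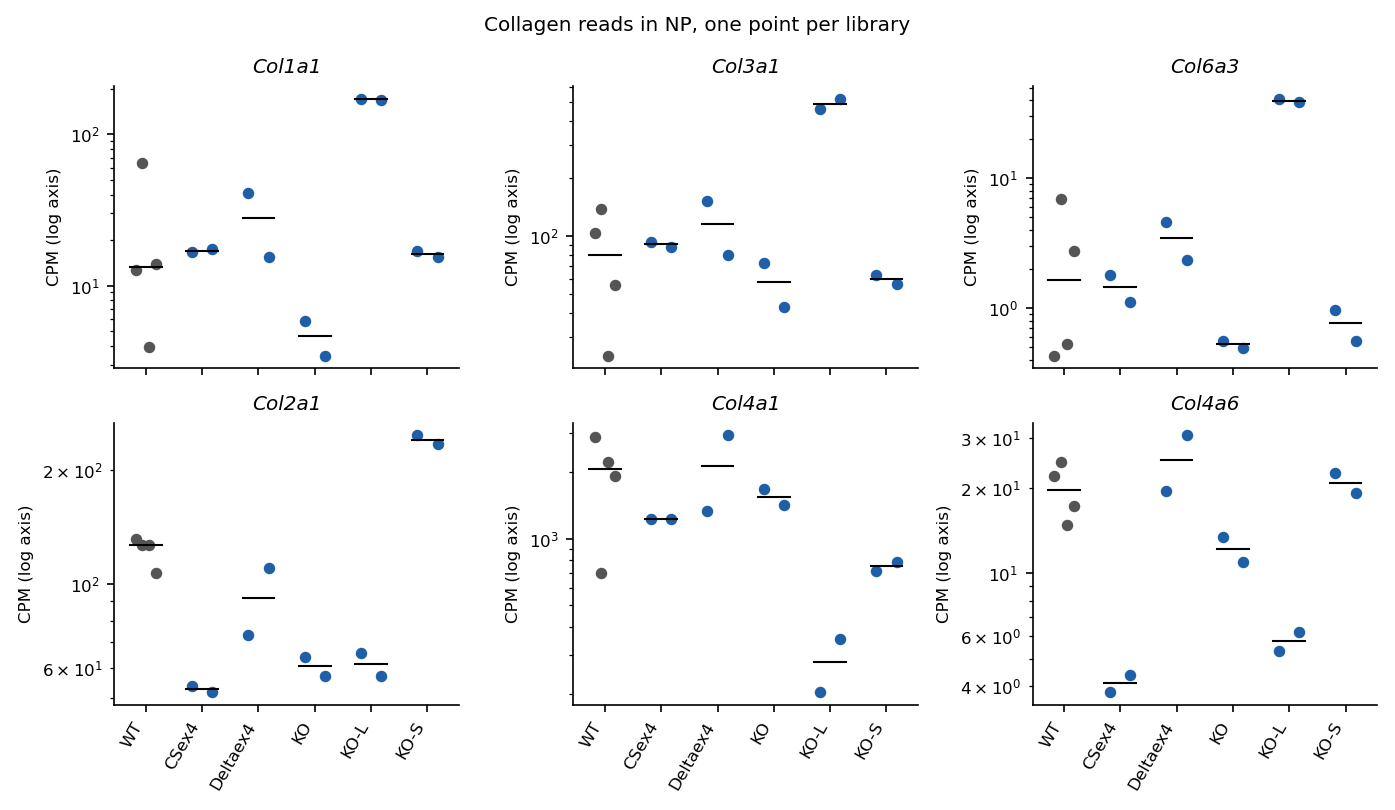
CPM (log axis) of collagen genes in each of the 14 NP libraries, by group; points are libraries. Col1a1, Col3a1 and Col6a3 are high in both KO-L libraries, Col2a1 is high in both KO-S libraries, and Col4a1 is low in both KO-L libraries.

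The main type IV genes fell in both NP rescues. Col4a1 was at 1673 and 1414 CPM in KO, 203 and 354 CPM in KO-L, 715 and 787 CPM in KO-S and 701 to 2874 CPM in WT. Both rescues lay below KO, and KO-L lay below every other NP library. The authors' deposited tables gave -2.50 ± 0.23 in KO-L (adjusted p = 1.6e-26) and -0.98 ± 0.15 in KO-S (adjusted p = 3.3e-09). Col4a2, at 1081 and 1400.1 CPM in KO, 182 and 323 CPM in KO-L and 528 and 660 CPM in KO-S, fell by 2.32 and 1.00 on the log2 scale (SE 0.18 and 0.14) in the same deposited tables. Neither was called in KO, CSex4 or Deltaex4 against WT, with Col4a1 at 0.09 ± 0.45, -0.26 ± 0.42 and 0.48 ± 1.28 and Col4a2 at 0.43 ± 0.39, -0.49 ± 0.41 and 0.25 ± 0.55 in the authors' deposited tables. WT c and d over KO gave 0.49 ± 0.25 and 0.13 ± 0.27, not called.

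Col4a5 and Col4a6 moved together in NP. Col4a5 was at 49.4 and 43.1 CPM in KO, 24.3 and 31.4 CPM in KO-L, 78.2 and 65.8 CPM in KO-S, 23.3 and 21.7 CPM in CSex4 and 55.5 to 104 CPM in WT. CSex4 and KO-L lay below KO and WT, and KO-S above KO. In the authors' deposited tables Col4a5 had -1.80 ± 0.35 in CSex4 over WT, and -0.72 ± 0.25 in KO-L and 0.69 ± 0.19 in KO-S over KO, while Col4a6 had -2.56 ± 0.41, -1.06 ± 0.38 and 0.83 ± 0.28, all called. The difference between CSex4 and Deltaex4 in NP was called for 3 of 44 members (1.22% of genes): Col4a5 (-1.94 ± 0.47), Col4a6 (-2.62 ± 0.57) and the FACIT gene Col9a2 (2.32 ± 0.61). Col9a2 was at 46.6 and 44.6 CPM in CSex4, 9.83 and 7.98 CPM in Deltaex4 and 5.21 to 20.2 CPM in WT. With limma without a replicate block, 0 members and 0.0% of genes were called in NP CSex4. With WT a or WT b left out, 29 members (71.3% of genes) or 25 members (52.8%) were called; in those fits the spread comes from the CSex4 pair alone.

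Among the other collagens in NP, Col6a3 had the largest rise. It was at 0.559 and 0.498 CPM in KO, 40.9 and 38.4 CPM in KO-L, 0.964 and 0.564 CPM in KO-S and 0.433 to 6.88 CPM in WT, so KO-L lay above every other NP library. The authors' deposited table gave 6.25 ± 0.40 (adjusted p = 3.4e-52). Col6a6 also rose in KO-L (4.21 ± 1.43, adjusted p = 0.016, in the authors' deposited table), but to only 1.18 and 1.73 CPM. Col6a1 and Col6a2 did not go with Col6a3 in KO-L, at 0.36 ± 0.97 and 0.04 ± 0.32 in the authors' deposited table. Col6a1 differed between the KO libraries, with 10.1 and 47.4 CPM. Both genes were lower in WT c and d than in KO (-2.08 ± 0.46 and -2.39 ± 0.40), and Col6a2 was lower in KO-S (-1.38 ± 0.34) and higher in KO than in WT a and b (1.38 ± 0.46), in the authors' deposited tables.

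Col13a1 rose in NP KO-L by 2.46 ± 0.41, to 18.3 and 19.7 CPM from 5.55 and 2.12 CPM in KO, and Col8a2 by 2.09 ± 0.33, to 24.1 and 27.2 CPM from 7.90 and 4.65 CPM, in the authors' deposited table. Col8a1 went down in both rescues, by 2.04 and 2.14 on the log2 scale (SE 0.54 and 0.48), from 7.35 and 8.34 CPM in KO to 2.67 and 1.26 CPM and to 1.58 and 1.84 CPM. In KO it was higher than in WT a and b, by 1.57 ± 0.59 in the authors' deposited table. Col18a1 rose in both rescues, by 1.26 ± 0.18 and 1.64 ± 0.16 in the authors' deposited tables, from 388 and 257 CPM in KO to 838 and 669 CPM in KO-L and 1025 and 881 CPM in KO-S. Its relative Col15a1 rose in KO-L alone, by 2.01 ± 0.61.

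The FACIT gene Col9a3 was at 9.62 and 5.27 CPM in NP KO and at 0.908 to 3.20 CPM in KO-L, KO-S and WT, so KO lay above all of these. In the authors' deposited tables it had 2.09 ± 0.63 in KO over WT a and b, -2.65 ± 0.61 in WT c and d over KO, and in the rescues -2.18 ± 0.52 with the long and -1.44 ± 0.47 with the short isoform. Col14a1, a FACIT of tendon and skin, fell in KO-S by 3.13 on the log2 scale (SE 0.53) in the authors' deposited table, to 1.5 and 0.527 CPM from 9.90 and 7.06 CPM. Col12a1 and Col22a1 were lower in KO with both WT pairs: -1.15 ± 0.41 and -1.28 ± 0.46 for KO over WT a and b, and 1.53 ± 0.30 and 1.39 ± 0.44 for WT c and d over KO, in the authors' deposited tables. Col26a1 was lower in KO than in WT a and b by 1.55 on the log2 scale (-1.55 ± 0.39), and Col27a1, a fibrillar collagen with a Suz12 region at its start, fell in KO-L (-1.74 ± 0.36), in the authors' deposited tables.

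Between NP KO-L and KO-S, 15 of 44 members differed (7.03% of genes), 9 higher and 6 lower in KO-L. Higher were Col1a1 (3.35 ± 0.43), Col3a1 (3.00 ± 0.31), Col5a1, Col5a2, Col6a2, Col6a3 (5.71 ± 1.27), Col8a2, Col13a1 and Col14a1; lower were Col2a1 (-2.01 ± 0.27), Col27a1 and all 4 of Col4a1, Col4a2, Col4a5 and Col4a6 (-1.32 to -1.89). The KO libraries are shared by both sides. Col1a1, Col3a1 and Col5a1 were thus higher in KO-L than in KO-S by a direct test in both cell states, while Col13a1 was lower in KO-L in ESC and higher in NP.

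Markers moved with the NP groups too. The 12 fibroblast and mesenchyme markers, all with reads in all NP libraries, summed to 546 and 635 CPM in KO-L, 336 and 498 CPM in KO, 268 and 305 CPM in KO-S, and 261 to 351 CPM in WT. Of the 12, 5 rose and 1 fell in KO-L over KO in the authors' deposited table, beside 10.9% and 13.8% of genes. Endothelial markers summed to 213 and 217 CPM in KO-L and 287 and 291 CPM in CSex4. They summed to 116 and 39.5 CPM in Deltaex4 and 18.0 to 68.0 CPM in KO, KO-S and WT. The sum in CSex4 was mostly Cdh5 (191 and 199 CPM) and Pecam1 (82.3 and 78.2 CPM). These were the 2 of 6 called higher there over WT in the authors' deposited table, beside 4.08% of genes. In KO-L over KO, 5 of 6 were called higher, beside 10.9% of genes. Extraembryonic endoderm markers were at 564 and 909 CPM in KO, 207 and 301 CPM in KO-L and 394 and 490 CPM in KO-S. WT spanned all of these, at 193.5 to 1004 CPM, and Afp made up 507 CPM of the sum in WT a. Over KO, 0 rose and 6 fell of 8 in KO-L, and 0 and 7 in KO-S, in the authors' deposited tables. Of all genes, 10.9% rose and 13.8% fell in KO-L, and 16.4% and 18.0% in KO-S. In KO over WT a and b, 4 of the 8 rose and 1, Afp, fell, beside 11.6% and 9.85% of genes. Neural precursor markers were at 136 and 141 CPM in KO and 425 to 1763 CPM in the other NP groups. ESC markers stood at 1366 and 1388 CPM in CSex4 and 649 and 943 CPM in KO-L, against 131 to 467 CPM in KO, KO-S, Deltaex4 and WT. The part of these cell types in the collagen results was not tested.

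The effect of the same change of Suz12 differed between ESC and NP for many members. For KO against WT, 9 of 44 members differed between the cell states (9.65% of genes), and 8 of them were higher in ESC, among them Col6a3 (5.51 ± 1.43), Col26a1 (4.21 ± 0.71), Col22a1 (3.35 ± 0.60) and Col1a1 (2.66 ± 0.69); Col9a3 was lower (-2.29 ± 0.76). These NP values rest on WT a and b. With WT c and d in their place, a test added after the values were seen, 9 members differed (15.5% of genes), 7 of them among the former 9. Col1a1 (0.72 ± 0.77, adjusted p = 0.71) and Col9a2 (0.81 ± 0.50, adjusted p = 0.34) no longer did, while Col6a3 (4.98 ± 1.48), Col26a1 (3.38 ± 0.69) and Col22a1 (3.45 ± 0.58) still did. Col6a3 was at 0.433, 6.88, 0.535 and 2.74 CPM in NP WT a to d. For CSex4, a pair of tables added after the values were seen, 12 of 44 differed (3.09% of genes) and 11 were higher in ESC. Col4a5 and Col4a6 had differences of 4.28 ± 0.73 and 4.76 ± 1.07, and Col12a1 of 4.54 ± 0.80; Col9a2 differed by -2.31 ± 0.62. No library is shared between the cell states.

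Genes that make and hold collagen were read from lists. Of 29 listed genes of collagen synthesis and crosslinking, 3 rose and 0 fell of 27 tested in ESC CSex4 and in ESC KO-L in the authors' deposited tables. Of all genes, 1.72% rose and 0.695% fell in CSex4, and 1.46% and 0.771% in KO-L. The 3 listed genes that rose were the procollagen protease Bmp1 and the crosslinking oxidases Lox and Loxl4 in both. Lox had 3.13 ± 0.75 and 3.34 ± 0.68, and Loxl4 2.58 ± 0.61 and 2.06 ± 0.58, in the authors' deposited tables. Of the fibril partners, the matrix glycoprotein Tnc rose by 3.39 ± 0.75 in CSex4 and 3.30 ± 0.62 in KO-L, and Postn by 4.84 ± 1.28 in KO-L, in the authors' deposited tables. In these groups 1 of 9 and 3 of 10 tested partners rose, beside 1.72% and 1.46% of genes. In NP KO-L over KO, 6 of 15 fibril partners rose and 1 fell, beside 10.9% and 13.8% of genes. The rises were led by Tnxb (3.11 ± 0.81) and the fibrillin Fbn2 (2.34 ± 0.26) in the authors' deposited table. Synthesis genes were divided there, with 5 of 29 higher and 8 lower, beside the same shares of genes. The prolyl hydroxylase subunits P4ha3 (-3.80 ± 0.35) and P4ha2 (-2.24 ± 0.21) were among those lower.

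Partners of type IV collagen in the basement membrane went down with Col4a1 and Col4a2 in the NP rescues. Of 16 listed laminin, nidogen and related genes, 1 rose and 10 fell in KO-L over KO in the authors' deposited table, beside 10.9% and 13.8% of genes. In KO-S over KO, 0 rose and 10 fell, beside 16.4% and 18.0% of genes. The medians were -0.92 and -1.09, beside -0.01 and -0.04 over all genes. In KO over WT a and b, 6 of the 16 rose and 0 fell, beside 11.6% and 9.85% of genes, with the laminin chain Lama3 at 3.35 ± 0.74. In WT c and d over KO, 0 rose and 11 fell in the authors' deposited table, beside 15.6% and 17.3% of genes. Col4a1 and Col4a2 were not called in those KO and WT comparisons. In ESC KO-S, where Col4a1 was high, 2 of 15 tested partners rose, beside 4.28% of genes. They were Nid1, by 1.5 ± 0.34, and Lamb2, by 1.07 ± 0.36, in the authors' deposited table.

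The 10 members called in no table were Col10a1, Col19a1, Col24a1, Col25a1, Col28a1, Col4a3, Col4a4, Col6a4, Col6a5 and Col9a1. Most were near the floor of detection: 36 members had a mean of at least 10 reads over the ESC libraries and 39 over the NP libraries. Col10a1, the collagen of hypertrophic cartilage, did not exceed 0.193 CPM in any library. Col28a1 had no read in any ESC WT library, which allows up to 0.123 CPM in each. Of the members with a Suz12 region at the start, Col19a1 was at or below 0.300 CPM everywhere, and Col25a1, at 0.0409 to 1.33 CPM in ESC and 2.59 to 11.5 CPM in NP (67 to 246 reads), was called in no deposited table; limma called it lower in NP WT c and d than in KO. Col24a1, with an H3K27me3 region alone, was at 0 to 0.443 CPM in ESC and 0.467 to 1.42 CPM in NP.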

How the data were processed

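The RNA-seq part holds 18 ESC and 14 NP libraries. Per the file headers and the submitters' processing notes, the authors used TopHat, Bowtie and DESeq2 with builds mm10 and dm3; versions, the counter and the annotation are not given in the sources used here. Each deposited comparison table gives a baseMean signal (the mean of read counts divided by size factors), a log2 fold change with its standard error, a test statistic (a score), a p-value and an adjusted p-value. Per the file headers, the deposited region lists come from DiffBind with a 5% limit on false discoveries and give no direction; only their positions were used. Genes count as called where the adjusted p-value deposited by the authors is under 0.05.

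The plan allowed for count tables, and none was among the files, so the deposited statistics are the main result and no count model was run. Whole reads of each library were recovered from the baseMean values, which share libraries between tables (Python 3.11.15, numpy 2.4.6, pandas 2.3.3, scipy 1.17.1). They passed the check for 100% of genes in NP and 99.84% in ESC; 42 genes were left out. In simulated ESC data, 99.4% of 26171 genes came back exactly, and the lowest mean of a wrong gene was 9075 reads, a level that only Col18a1 exceeds among the ESC members. Size factors computed from the recovered reads differed from the deposited ones by at most 0.162%. An added fit used limma 3.58.1 in R 4.3.3 with a trend, on log2(CPM + 0.5), for genes with a mean of at least 10 reads, with no replicate block. The file names call the comparisons paired, the single-read genes of the ESC WT library without a partner have fold changes near 0, and recovered libraries carry no replicate number. Differences between 2 comparisons were tested with a two-sided z test on the deposited log2 fold changes over the root of the summed squared standard errors, with Benjamini-Hochberg adjustment over all genes, for 9 pairs of comparisons; with shared controls this overstates the error.

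Named genes are Col1a1, Col1a2, Col3a1, Col2a1, Col4a1 and Col4a2 throughout, the 3 called members with the largest rise and fall in each comparison, neighbouring pairs, members with a region at their start, and the 2 most changed called genes of a partner list in the comparisons described; further called members, and markers named beside a sum, were chosen after their values were seen. A partner gene that this rule names is not reported here. The members, the gene lists and the tests were chosen with earlier results of these data known. Sequences and starts are from RefSeq (GRCm38.p6), which matched 35 members; figures were drawn with matplotlib 3.10.9.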

Additional observations from a re-analysis of the deposited data

Results flagged for a closer look

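In the 4 NP WT libraries, 3 of the 44 members had a library far from the others by Dixon's test, which flags about 1 group in 20 by chance: Col1a1, at 65.2 CPM in WT b against 3.91 to 13.9 CPM; Col19a1, at 0.300 CPM in WT a; and Col4a3, at 0.233 CPM in WT c. The last 2 are near the floor of detection.

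The effect of KO on 9 members differed between ESC and NP in the z test, given as the ESC minus the NP log2 fold change. It was 2.02 for Col11a1, 2.12 for Col12a1, 2.66 for Col1a1, 3.35 for Col22a1, 4.21 for Col26a1, 2.07 for Col4a5, 5.51 for Col6a3, 2.15 for Col9a2 and -2.29 for Col9a3. With NP WT c and d in place of a and b, Col1a1 (0.72) and Col9a2 (0.81) did not pass the test. For CSex4 the differences were 2.43 for Col11a1, 4.54 for Col12a1, 3.24 for Col1a1, 2.05 for Col1a2, 3.04 for Col2a1, 3.37 for Col3a1, 4.28 for Col4a5, 4.76 for Col4a6, 2.88 for Col5a1, 3.17 for Col7a1, 3.53 for Col8a1 and -2.31 for Col9a2. The NP values of this second set rest on the pair of CSex4 libraries with little spread, and the members were not called in ESC by limma without pairing.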

How the results depend on the processing

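At an adjusted p under 0.01, 4 members were called in ESC CSex4, 6 in ESC KO-L3D and 6 in NP KO, where 1.02%, 10.2% and 14.6% of all genes tested were. The limma fit with no replicate block called 0 in ESC CSex4, 0 in ESC KO-L and 0 in NP CSex4, with 0.0% of genes in each. It called 2 in NP KO, beside 10.6% of genes, and 11 of 37 in NP KO-S, beside 25.6% of genes. Its other 8 counts stayed within 1.5 times of the deposited ones. The cause was not tested. Of 117 called members over all tables, the fit without the block kept the direction and call of 74 and the direction alone of 43, and reversed 0. Leaving out each library in turn gave 0 to 8 called members in ESC CSex4, 0 in ESC Deltaex4, 9 to 17 in ESC KO, 0 to 4 in ESC KO-L, 0 to 23 in ESC KO-S, 7 to 16 in ESC KO-L3D, 0 to 11 in ESC KO-S3D, 0 to 29 in NP CSex4, 0 in NP Deltaex4, 0 to 9 in NP KO, 7 to 25 in NP KO-L, 5 to 17 in NP KO-S and 4 to 19 in NP WT against KO. The share of all genes called ran from 12.9 to 34.8% in ESC KO, 9.46 to 36.3% in ESC KO-L3D, 7.77 to 46.7% in NP KO-L, 7.89 to 36.8% in NP KO-S and 15 to 53% in NP WT against KO. The highest ESC counts of KO, KO-L and KO-S came without WT c, that of CSex4 without CSex4 b, and those of the 3D rescues without library b of each. Where a group was left with 1 library, that library was taken to vary like the others. A fold minimum of 1 on the log2 scale, a mean of at least 10 reads, and windows of 1000 bp or the gene body for regions changed no count by over 1.5 times and no median's direction beyond the spread. Members with few reads, such as Col10a1 and Col28a1, could show only large differences at this depth.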

Other observations

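Receptors and proteases of collagen were listed as well. The collagen receptor kinase Ddr2 rose in ESC KO (log2 fold change 4.44 ± 0.45, adjusted p = 1.8e-20) in the authors' deposited table. It also rose in ESC KO-L3D (4.21 ± 0.68) and in NP KO-L over KO (3.21 ± 0.42) in the authors' deposited tables. Of the tested receptors, 2 of 8 rose and 1 fell in ESC KO, beside 11% and 7.27% of genes. In ESC KO-L3D, 1 of 7 rose and 1 fell, beside 8.22% and 10.1% of genes. In NP KO-L over KO, 2 of 8 rose and 1 fell, beside 10.9% and 13.8% of genes. The integrin chain Itga11 rose in ESC KO (2.60 ± 0.72) and fell in NP KO-L (-2.16 ± 0.81) in the authors' deposited tables.

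Of 9 listed genes of collagen degradation, the gelatinase Mmp9 rose in ESC KO (1.86 ± 0.40), ESC KO-L3D (2.71 ± 0.45), NP CSex4 over WT (2.54 ± 0.42) and both NP rescues over KO (2.74 ± 0.40 for the long and 1.83 ± 0.44 for the short isoform) in the authors' deposited tables. In NP KO against WT, 4 of 6 tested genes of this list rose, among them Mmp14 (1.71 ± 0.33) and Timp2 (1.55 ± 0.35), and in NP KO-S over KO 4 of 6 fell, in the authors' deposited tables. No ESC marker, endoderm or fibroblast value was adjusted for in these fits.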
